A study of Mus musculus and Mus musculus
Rattus norvegicus with 30 samples.

Results

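Cytosolic ribosomal protein genes encode the proteins of the 40S and 60S ribosomal subunits. They were taken here as all genes whose symbol starts with Rpl or Rps followed by a digit, without the S6 kinases (Rps6k) and pseudogenes, together with Rplp0, Rplp1, Rplp2 and Rpsa. This rule found 86 of the 19919 genes shared by both mESC count tables. Of these, 46 were subunits of the large ribosomal subunit, 31 belonged to the small subunit, and 8 were paralogues by name of another member (Rpl3l, Rpl7l1, Rpl10l, Rpl22l1, Rpl36al, Rpl39l, Rps27l and Rps27rt). The last member, Rps19bp1, encodes a protein that binds Rps19 and is not a subunit. All 86 passed the filter on low counts, which kept 16000 genes. By the gene models of GRCm38 the members lay on 19 chromosomes, with no more than 14 on 1 chromosome.

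Every ribosome needs its proteins in near equal numbers, and the genes are among the most strongly transcribed of a growing cell. Many of their mRNAs begin with a run of pyrimidines, the 5′ terminal oligopyrimidine (TOP) tract, through which mTOR signalling sets their translation, and Myc proteins are known activators of the genes. Pluripotent stem cells divide fast and transcribe ribosomal genes at a high level, and the output of ribosomes is known to change when they leave that state.

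RNA was sequenced from mouse embryonic stem cells (mESCs) and from RMES cells, hybrid stem cells made by fusing haploid mouse and haploid rat stem cells, whose genomes they keep side by side. The mESCs were WT, or carried a lentiviral, DOX-inducible (Tet-On) transgene for Flag-tagged Cdx2, a homeobox factor that drives trophoblast fate: mouse Cdx2 (mCdx2-OE), rat Cdx2 (rCdx2-OE), or rat Cdx2 with 1 or more of 3 changes to the mouse residues in its DNA-binding domain (R1, R2, R3, R12, R13, R23 and R123). Change 1 turned a tyrosine into phenylalanine, change 2 an alanine into serine, and change 3 removed an asparagine. Each of these 10 mESC conditions had 2 libraries, and RMES cells had 2 WT libraries, 1 mCdx2-OE library and 1 rCdx2-OE library. It is not given in the labels if WT means parental cells or a transgenic line without DOX, nor whether the 2 libraries of a condition came from separate cultures, so p values measure the spread between these libraries. All cells were grown with inhibitors of MEK and GSK3 and with mLIF.

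The WT mESC libraries held 74960057 and 94686029 counted pairs and the 18 induced libraries 12698443 to 24315929, so that depth differed with induction. RMES libraries held 36166038 to 41418817 pairs assigned to the mouse genome, and 29453412 to 35249756 pairs assigned to that of the rat. Cdx2 itself was at 1.21 to 1.36 CPM (counts over the TMM-scaled library total in units of 1e6) in WT mESCs and at 37.2 to 146.6 CPM in the induced libraries. The summed level of 8 pluripotency markers was 5058 to 5189 CPM in WT and 3227 to 5306 CPM in induced mESCs, that of 8 trophoblast markers 160.3 to 161.6 CPM and 195.5 to 836 CPM, and that of 8 feeder fibroblast markers 38.3 to 39.2 CPM and 2.81 to 19.9 CPM. Cdx2 was itself 1 of the 8 trophoblast markers, so its rise is part of that sum. At an adjusted p under 0.05, 5 of 7 tested trophoblast markers were higher and 1, Eomes, lower in mCdx2-OE. In the mean of the mutants 4 were higher and 2 lower. Of the 8 pluripotency markers, 3 (Tfcp2l1, Klf4 and Nanog) were higher and 5 lower in mCdx2-OE. In the mutants 4 of them were higher and 3 lower. Of 7 tested feeder markers, 1 (Pdgfrb) was higher and 5 were lower in mCdx2-OE, and all 7 were lower in the mutants. Of all 16000 tested genes, 11158 passed in either direction in mCdx2-OE and 11820 in the mean of the mutants. No marker of these lists was at 0 in all libraries, and the part of feeder cells or of depth in the results was not tested.

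The ribosomal protein genes took a smaller share of all counts in every induced library than in WT. In mESCs they held 7.91% and 8.38% of the pairs in the 2 WT libraries and between 4.23% and 5.77% in the 18 induced libraries, with a median of 5.29%. The induced libraries thus did not overlap with WT. The mCdx2-OE and rCdx2-OE libraries differed by replicate, with 5.32% and 5.37% in replicate 1 and 4.23% to 4.33% in replicate 2. The mutants went the other way, with 4.71% to 5.26% in replicate 1 and 5.32% to 5.77% in replicate 2. Within replicate 1 the WT library was above all 9 induced libraries, and the same held within replicate 2. Shares say nothing of the RNA content of a cell, and in bulk samples fewer cells that express a gene and less RNA per cell cannot be told apart.

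**Figure D1:**
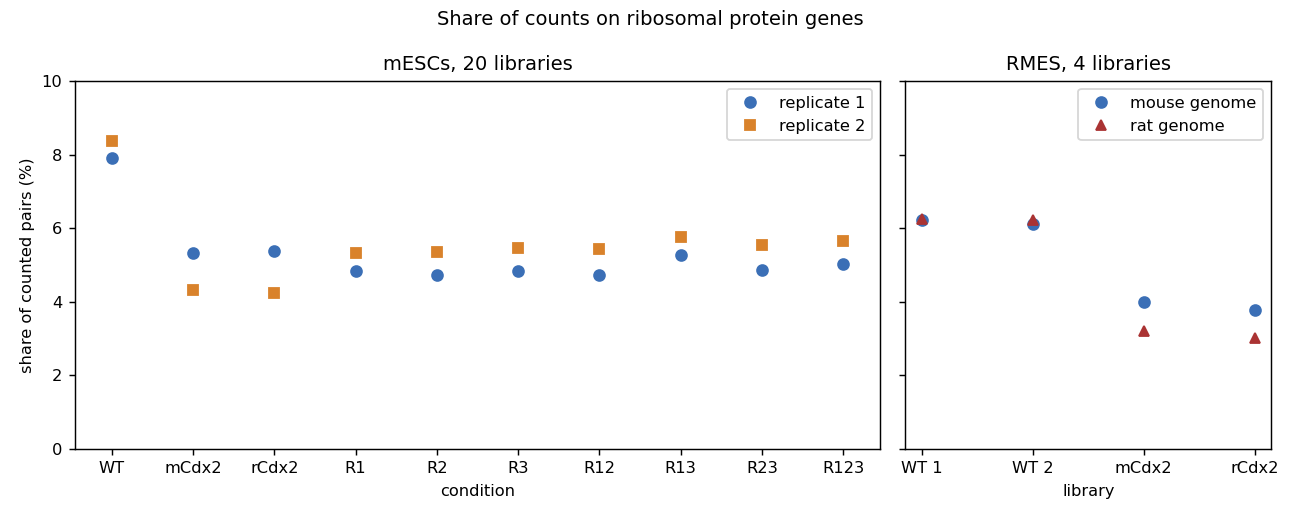
Share of counted pairs on ribosomal protein genes (%) in each of 20 mESC libraries by condition (left; symbols mark the replicate) and in 4 RMES libraries on the mouse and the rat genome (right). WT mESCs lie at 7.91% and 8.38%, and all induced mESC libraries between 4.23% and 5.77%.

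Of the 86 members, 81 were lower in mCdx2-OE than in WT mESCs and none was higher. This was at an adjusted p under 0.05 in edgeR's quasi-likelihood test over all genes, by which 35.8% of all tested genes were lower. More than 2-fold lower were 40 members, against 15% of all genes. The median log2 fold change of the members was −0.99, and that of all genes −0.03. Among the large subunit proteins 44 of 46 were lower, with a median of −0.93, among the small subunit proteins 29 of 31, with a median of −1.07, and among the paralogues 7 of 8, with a median of −1.26. For 75 members every one of the 18 induced libraries lay below both WT libraries, which held for 28.6% of all genes, and for no member did all lie above. The ranges overlapped for 11 members, namely Rpl4, Rpl10l, Rpl15, Rpl17, Rpl21, Rpl23a, Rpl35, Rps6, Rps24, Rps26 and Rps27rt. Leaving out single libraries, the count ranged from 69 to 83, with the lowest value without replicate 2 of mCdx2-OE. The median was −0.82 without replicate 2 of all conditions and −1.26 without replicate 1.

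**Figure D2:**
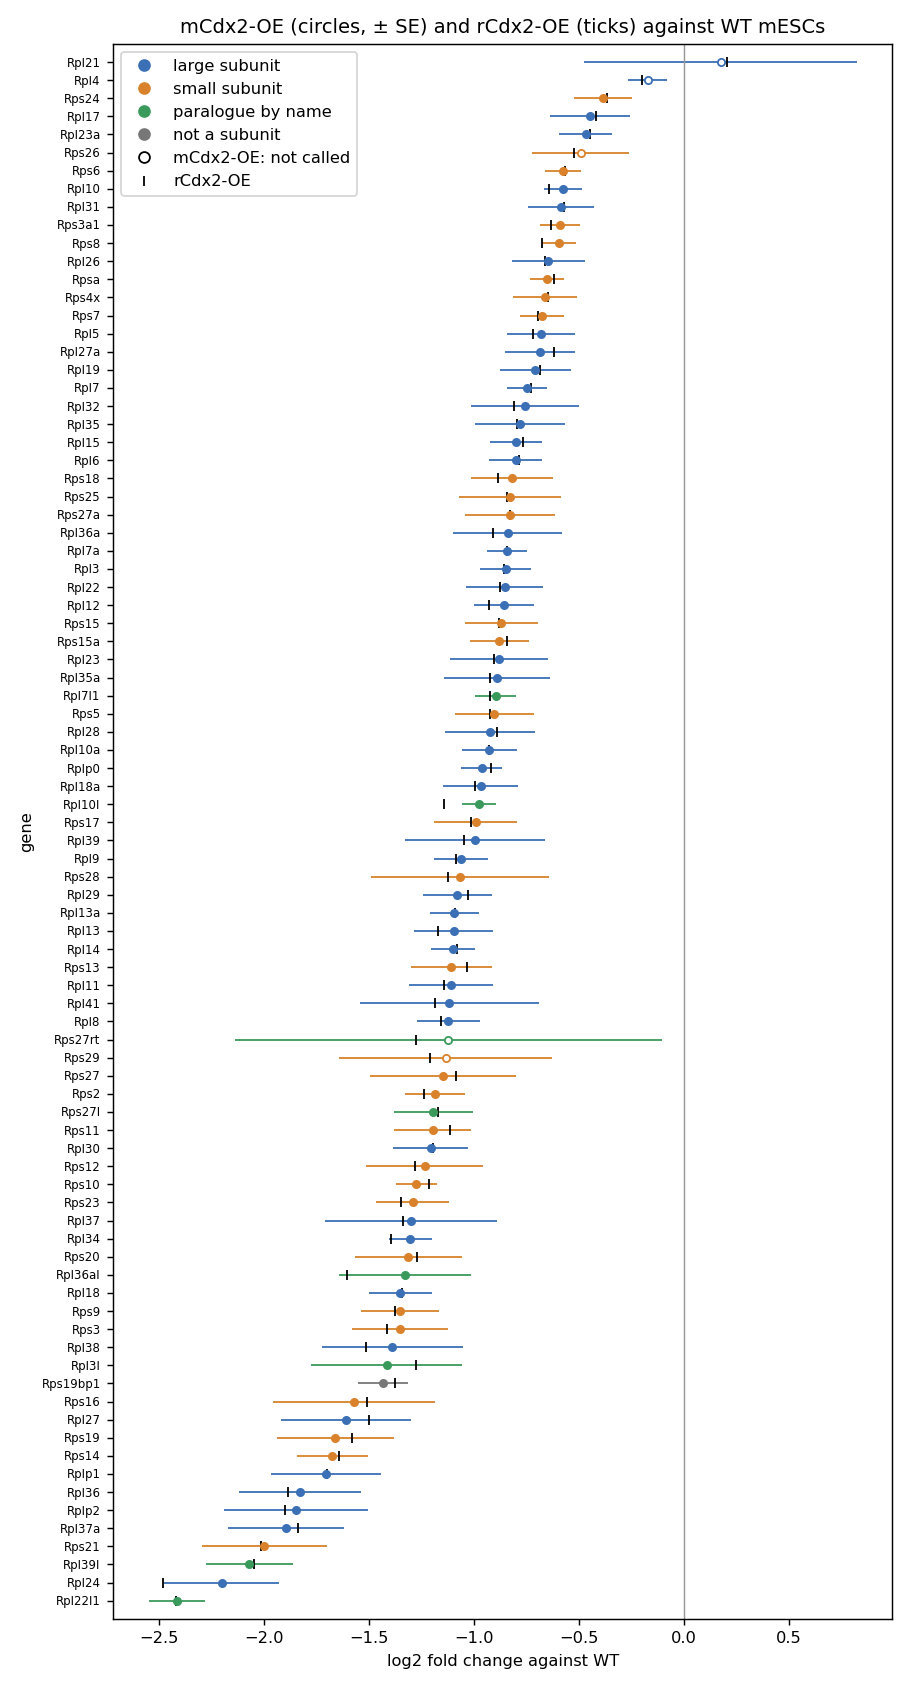
log2 fold change against WT mESCs of all 86 ribosomal protein genes with mCdx2-OE (circles with bars of 1 SE, coloured by kind of gene, open where not called) and rCdx2-OE (black ticks). Nearly all lie below 0, from −2.42 for Rpl22l1 to 0.17 for Rpl21, and the ticks lie close to the circles.

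The largest falls among well-counted members in mCdx2-OE were those of Rpl22l1, Rpl39l and Rps21. Rpl22l1, a paralogue of Rpl22 (chr3:28805436-28807424 of GRCm38, plus strand), was at 152 and 158 CPM in WT, at 31.4 and 26.4 CPM in mCdx2-OE and at 31.5 and 26.0 CPM in rCdx2-OE. Over the 18 induced libraries it ranged from 26.0 to 41.5 CPM with a median of 34.0 CPM, so that even the highest induced library was far below WT. Its log2 fold change was −2.42 (SE 0.13, edgeR adjusted p = 1.69e-10), while its partner Rpl22, a protein of the large subunit, changed by −0.86 (SE 0.18, adjusted p = 0.000535). The difference between the 2 partners was not tested. Rpl39l, the paralogue of the X-linked Rpl39 known from testis (chr16:10170226-10174911), was at 45.5 and 45.8 CPM in WT and at 13.6 and 7.74 CPM in mCdx2-OE. It lay between 7.74 and 19.3 CPM in all induced libraries, and its log2 fold change was −2.07 (SE 0.21, adjusted p = 1.9e-07). Rps21, a small protein of the 40S subunit (chr2:180257377-180258445), was at 733.5 and 802.8 CPM in WT and at 206.8 and 177.2 CPM in mCdx2-OE. No induced library exceeded 279 CPM, and its log2 fold change was −1.999 (SE 0.30, adjusted p = 1.7e-05). Rpl24 fell by as much (−2.20, SE 0.27, adjusted p = 2.49e-06), but it was counted at only 3.77 and 3.71 CPM in WT, whereas most other subunit genes were far higher.

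Sequences around the start site are shown for members without and with overlap of induced and WT libraries, since many mRNAs of this family carry a pyrimidine run there. Each window holds 30 bases centred on the RefSeq start in GRCm38.p6, 5′ to 3′ on the strand of the gene, and capitals mark its longest run of C or T. The first 3 genes had every induced library below WT, and the last 3 had induced libraries within the range of WT. Rpl35 overlapped with WT only through mutant libraries. Its means were 740 CPM in WT, 430 CPM in mCdx2-OE and 427 CPM in rCdx2-OE.
Rpl22l1 (chr3:28805493-28805522, plus strand): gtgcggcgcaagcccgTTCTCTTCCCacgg
Rps21 (chr2:180257364-180257393, plus strand): taccgaggacccgCCCTCCTgcccaatagt
Rplp2 (chr7:141447636-141447665, plus strand): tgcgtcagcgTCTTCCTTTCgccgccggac
Rpl4 (chr9:64173372-64173401, plus strand): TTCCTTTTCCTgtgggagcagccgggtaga
Rps24 (chr14:24490663-24490692, plus strand): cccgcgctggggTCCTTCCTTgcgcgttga
Rpl35 (chr2:39005117-39005146, minus strand): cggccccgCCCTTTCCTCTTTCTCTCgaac
The run is 10 bases long in Rpl22l1, 7 in Rps21 and 10 in Rplp2, and 11, 9 and 18 bases long in Rpl4, Rps24 and Rpl35. Long runs thus stood among genes with and without overlap. The run of Rpl4 lies before the RefSeq start and opens at the edge of the window, so its full length is not shown.

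Such a window was read for 66 members. Promoters on chromosome 18 were left out, both for members and for other genes. A run of 8 or more C or T was found in 25 of these (37.9%), against 1372 of 11552 other tested genes (11.9%). The median log2 fold change in mCdx2-OE was −0.997 for the 25 members with a run and −1.06 for the 41 without. The hexamer TTTATG, searched on both strands of the promoter from 250 bases before to 50 after the start as the core of the Cdx2 motif, was found in 1 member (1.52%) and in 6.21% of other genes. The E-box CACGTG, to which Myc proteins bind, was found in 5 members (7.58%) and in 10.1% of other genes. These are descriptions of the letters in the window.

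The stalk proteins, which recruit translation factors to the large subunit, all fell in mCdx2-OE. Rplp1 (chr9:61913284-61914542) was at 2080 and 2134 CPM in WT and at 826 and 465 CPM in mCdx2-OE, and its log2 fold change was −1.71 (SE 0.26, adjusted p = 2.67e-05). Rplp2, whose start is printed above, was at 1032 and 1099.6 CPM in WT and at 409 and 182 CPM in mCdx2-OE (−1.85, SE 0.34, adjusted p = 0.000158). Rplp0, the protein that anchors both, was at 1961 and 2378 CPM in WT and at 1091 and 1133 CPM in mCdx2-OE, with a log2 fold change of −0.96 (SE 0.10, adjusted p = 1.91e-07). Whether they fell by different amounts was not tested. In the mean of the 7 mutants Rplp1, Rplp2 and Rplp0 changed by −1.80, −2.20 and −0.50. The mCdx2-OE replicates differed by more than 2-fold for Rplp2, while those of Rplp0 lay close together.

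Among the small subunit proteins, Rpsa, also known as a laminin receptor, was at 2448 and 2504 CPM in WT and at 1531 and 1618 CPM in mCdx2-OE (−0.65, SE 0.08, adjusted p = 2.71e-06). Rps6, the substrate of the S6 kinases, was at 1418 and 1169 CPM in WT and at 871 and 864 CPM in mCdx2-OE (−0.58, SE 0.09, adjusted p = 1.87e-05). Both fell less than the median member. The 4 X-linked members fell too. Their log2 fold changes in mCdx2-OE were −0.58 for Rpl10, −0.66 for Rps4x, −0.84 for Rpl36a and −0.997 for Rpl39, with a median of −0.75, against −1.07 for the other 82 members and 0.59 for the other tested genes of the X chromosome. Rpl36a and Rpl39 were no longer called without replicate 2 of mCdx2-OE (adjusted p = 0.134 and 0.171).

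Of the paralogue pairs, Rps27l was at 242 CPM in both WT libraries and at 124 and 87.2 CPM in mCdx2-OE (−1.19, SE 0.19, adjusted p = 3.15e-05), and Rps27 at 614 and 711 CPM in WT and at 425 and 171 CPM in mCdx2-OE (−1.15, SE 0.35, adjusted p = 0.00772; not called without replicate 2 of mCdx2-OE, adjusted p = 0.102). Rpl7l1 changed by −0.90 and Rpl7 by −0.75, Rpl3l by −1.42 and Rpl3 by −0.85, and Rpl36al by −1.33 and Rpl36a by −0.84. Rpl3l, known from heart and skeletal muscle, was counted at only 1.63 and 1.86 CPM in WT, and Rpl36al at 3.23 and 3.04 CPM. Per kilobase of transcript, the paralogues were lower than the subunit genes in WT mESCs, with a median level of 57.4 CPM per kb (8 genes, 1.27 to 485 CPM per kb) against 1266 CPM per kb (77 genes, 5.53 to 4222 CPM per kb, the highest being Rplp1). Counts of near-identical copies cannot be fully told apart.

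Members that were not called in mCdx2-OE were Rpl4, Rpl21, Rps26, Rps27rt and Rps29. Rpl4, a protein that lines the peptide exit tunnel, was at 2526 and 2563 CPM in WT and at 2389 and 2123 CPM in mCdx2-OE (−0.17, SE 0.09, adjusted p = 0.109), and some mutant libraries exceeded WT. Without replicate 1 of mCdx2-OE it passed the threshold (−0.27, adjusted p = 0.0458). Rpl21 could not be judged, because its WT libraries stood at 44.5 and 724 CPM and the induced libraries in between, at 350.3 to 536 CPM. Without WT replicate 1 its log2 fold change was −0.75 (adjusted p = 0.00377) and without WT replicate 2 it was 3.28 (adjusted p = 1.57e-08). The WT libraries of Rps27rt, a retrogene copy of Rps27, also went apart, at 17.6 and 2.42 CPM. Rps29 was at 652 and 619 CPM in WT and at 423 and 154 CPM in mCdx2-OE (adjusted p = 0.0569), a spread between replicates of more than 2-fold. Rps24 and Rpl17 were called, but only just, with log2 fold changes of −0.39 and −0.45 (adjusted p = 0.0215 and 0.0444), and neither was without replicate 2 of mCdx2-OE (adjusted p = 0.276 and 0.459) or without WT replicate 2 (adjusted p = 0.0792 and 0.249).

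**Figure D3:**
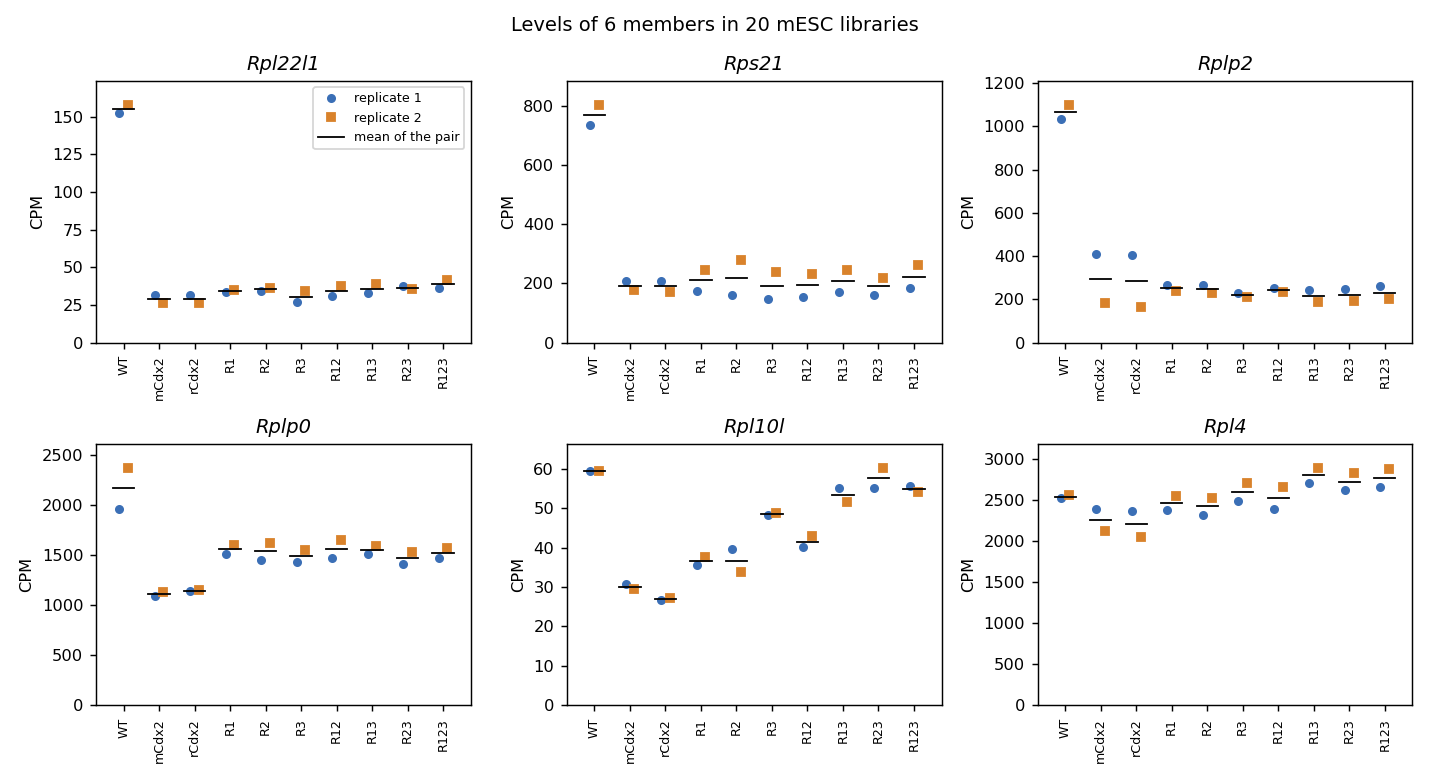
Level (CPM) of 6 ribosomal protein genes in each of 20 mESC libraries by condition, with a line at the mean of each pair. Rpl22l1, Rps21, Rplp2 and Rplp0 were lower in every induced library than in WT, while mutant libraries of Rpl10l and Rpl4 reached the level of WT.

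Rat Cdx2 was followed by the same count of calls as mouse Cdx2. In rCdx2-OE 81 members were lower and none higher, against 36.2% of all genes lower, with a median of −1.03; 44 were more than 2-fold lower, against 15.4% of all genes. Rpl22l1 (−2.42), Rpl39l (−2.05) and Rps21 (−2.02) again led the well-counted members. The mean of the 7 mutants was lower than WT for 77 members and higher for none, against 39% of all genes lower, with a median of −0.87. The largest falls there were those of Rplp2 (−2.20, SE 0.21), Rpl22l1 (−2.15, SE 0.08) and Rpl37a (−2.08, SE 0.17), the last a zinc-finger protein of the large subunit. Against WT 75 members were lower in R1 (33.1% of all genes), 74 in R2 (32.8%), 74 in R3 (33.4%), 77 in R12 (33%), 69 in R13 (34%), 74 in R23 (34.6%) and 72 in R123 (34.8%), and none was higher, with medians from −0.80 to −0.95. With all 9 constructs 66 members were called lower, with some 16, and with none Rpl4, Rpl21, Rps26 and Rps27rt, while 21.7% of all genes were called lower with all 9. All these comparisons share the 2 WT libraries.

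No member differed between mCdx2-OE and rCdx2-OE, where 3 of all 16000 genes (0.0188%) were called. None of the 86 passed an unadjusted p of 0.05 either, and DESeq2 called no member (21 genes in all). The log2 differences ran from −0.14 to 0.28. A test of any difference among the 9 constructs called 22 members, against 56.9% of all genes, and 24 at an unadjusted p of 0.05. The count depended on the scaling, with 11 members from total counts without TMM, and was 29 with the replicate number as a block. In 21 of the 22 the means of mCdx2-OE and rCdx2-OE were both below those of all 7 mutants. Over all 86 members this held for 50 (58.1%), and for 27% of all genes, whereas both lay above all mutants for 13 members (15.1%) and 29.4% of all genes. This order is one of means of 2 libraries, and the replicates went opposite ways in the share of counts on members. In replicate 1 mCdx2-OE and rCdx2-OE (5.32% and 5.37%) stood above all mutants (4.71% to 5.26%). Only in replicate 2 did they stand below (4.23% to 4.33% against 5.32% to 5.77%). The exception among the 22 was Rpl3l. The 22 were selected for differences among these same conditions, so their share is not comparable with that of all genes. Counted without a library each in turn, between 17 and 23 members were called, the fewest without replicate 2 of R13.

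Rpl10l, an autosomal copy of the X-linked Rpl10 known from testis (chr12:66283379-66284401), led this test (edgeR adjusted p = 6.33e-08). It was at 59.4 CPM in both WT libraries, at 30.8 and 29.5 CPM in mCdx2-OE and at 26.6 and 27.3 CPM in rCdx2-OE. The mutant means ran from 36.7 CPM in R1 to 57.7 CPM in R23, so that some mutants stood near WT. Rpl15 had means of 488 and 499 CPM in mCdx2-OE and rCdx2-OE and of 745 to 794 CPM in the mutants (adjusted p = 0.000247). Rps2, a protein at the entry of the mRNA channel, had means of 1246 and 1202 CPM against 1903 to 2103 CPM (adjusted p = 0.000304). Rplp0, Rpsa, Rps6, Rps10 and Rpl13 were called in the same test. Which libraries were made together is not given in the labels beyond the replicate number, and library preparation and construct cannot be told apart.

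Among rCdx2 and its mutants, each change was present in 4 of 8 constructs. Change 1 moved no member at an adjusted p under 0.05 (0% of all genes), with 2 at an unadjusted p of 0.05. For change 2 the numbers were 0 called (0% of all genes) and 3 unadjusted, and DESeq2 called no member for either, with 24 and 2 calls over all genes. Change 3, the removal of the asparagine, was followed by higher levels of 7 members and lower levels of none, against 36.6% of all genes called. These were Rpl10l (0.61, SE 0.07, adjusted p = 4.1e-06), Rpl3l (0.90, SE 0.32), Rpl39l (0.28, SE 0.11), Rps2 (0.26, SE 0.09), Rpl12 (0.23, SE 0.07), Rps24 (0.19, SE 0.06) and Rpl4 (0.18, SE 0.05) on the log2 scale. The constructs of Rpl10l did not overlap by this change, with mean levels of 26.9, 36.7, 36.7 and 41.5 CPM in rCdx2-OE, R1, R2 and R12, which keep the asparagine, and of 48.5, 53.4, 57.7 and 54.9 CPM in R3, R13, R23 and R123, which lack it. Rpl10l was picked by the test on these same libraries, so its separation describes that call and adds no further evidence. In either replicate alone Rpl10l was the 1 member still called (adjusted p = 0.0202 and 0.0189). Over all genes 1317 were called without replicate 1 and 1361 without replicate 2.

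The RMES libraries differed in more than the Cdx2 construct. Mitochondrially encoded genes took 2.32% to 2.65% of the mouse counts in WT and 0.0259% to 0.0313% in the induced libraries, while of the rat counts they took 0.00592% to 0.00775% in WT and 13.9% to 14.3% in the induced libraries. The WT cells thus carried counts of mouse and the induced cells counts of rat mitochondria. The Cdx2 row was at 129 and 127 CPM on the mouse and at 453 and 440 CPM on the rat genome in WT, at 967.5 and 47.2 CPM with mCdx2-OE, and at 4.45 and 880 CPM with rCdx2-OE. The edgeR test of induced against WT libraries did not call the Cdx2 row. Its log2 fold change was 1.93 on the mouse (adjusted p = 0.136) and 0.06 on the rat genome (adjusted p = 0.942). Induction and the origin of the cells cannot be told apart here. The 2 induced libraries carry different Cdx2 proteins and were treated as replicates, as the study did.

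In the RMES mouse table, which holds 86 members among 34923 genes (86 of 16887 tested), 84 members were lower in the induced libraries than in WT and none higher (76 lower and 2 higher without TMM, among the latter Rps24). Of all tested genes 39% were lower. The median log2 fold change was −1.24, and that of all genes 0.08. Rpl22l1 fell most, from 102 and 105 CPM in WT to 12.5 CPM with mCdx2-OE and 11.7 CPM with rCdx2-OE (−3.10, SE 0.07, adjusted p = 2.52e-12). Rps29 went from 299 and 251 CPM to 37.0 and 33.6 CPM (−2.96, SE 0.09), and Rpl35a from 181 and 180.4 CPM to 23.9 and 22.7 CPM (−2.95, SE 0.06). The mCdx2-OE and rCdx2-OE libraries lay close together for these genes. Rplp1 fell by 2.63 and Rplp2 by 2.12 on the log2 scale, and Rplp0 by 0.51. The members not called were Rpl36al and Rpl3l, both under 2 CPM. Rps24 was least changed among those called (−0.21, SE 0.05, adjusted p = 0.00261), and it was not called without either WT library (adjusted p = 0.0538 and 0.085).

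Among the 25245 genes of the rat counts 87 were members, of which 84 passed the filter (14627 genes in all). The rat gene models hold 14 paralogues by name, and 79 symbols were members in both tables. Of the 84, 82 were lower and none higher (81 lower and 1 higher, Rpl39, without TMM), against 39% of all genes lower. The median was −1.35, and that of all genes 0.07. Rps28, a small protein of the 40S subunit, went from 415 and 378 CPM in WT to 39.4 CPM with mCdx2-OE and 34.4 CPM with rCdx2-OE (−3.43, SE 0.08, adjusted p = 1.69e-14). Rps21 went from 417.5 and 386 CPM to 43.7 and 40.05 CPM (−3.26, SE 0.07). Rpl37 had a larger fold change (−3.83, SE 0.31) but only 3.62 and 3.97 CPM in WT. Rpl3l and Rpl39 were not called. Counts of 10 rat members summed to under 200 pairs over the 4 libraries, among them Rplp2, Rps6 and Rps19, against 1 mouse member, Rpl3l. The share of all counts on members went from 6.12% and 6.22% to 3.77% and 3.99% in the mouse table and from 6.22% and 6.25% to 3.01% and 3.20% in the rat table.

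Both alleles were read from the same 4 libraries, so the response of each could be compared within a library. The difference between alleles was called for 68 of 79 members, against 62.1% of all genes with a symbol in both tables. The rat allele fell more in 46 and the mouse allele in 22. Among the 64 members with at least 20 CPM on each allele in WT, 59 were called, with the rat allele falling more in 39 and the mouse allele in 20, and the median difference (mouse minus rat) was 0.17 on the log2 scale. More than 2-fold were 12 differences, a smaller share (15.2%) than among all genes (24.8%), and in 8 of these 1 allele was under 20 CPM in WT (Rpl7a, Rpl8, Rpl36a, Rpl37, Rpl39 and Rps6 on the rat, Rpl24 and Rpl36al on the mouse genome).

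The other 4 were well counted on both alleles. Rpl39l changed by −2.77 on the mouse and by −0.98 on the rat allele, a difference of −1.81 (SE 0.06, adjusted p = 3.24e-17). Rpl12, a protein at the base of the stalk, changed by −1.92 and −0.63 (difference −1.31, SE 0.03, adjusted p = 1.92e-21), from 1052 and 1060.3 CPM in WT to 275 and 282 CPM on the mouse and from 782 and 784 CPM to 510.0 and 499.6 CPM on the rat allele. Rpl10l changed by −2.03 and −0.83 (difference −1.24, SE 0.08). Rps28 went the other way, with −2.39 on the mouse and −3.43 on the rat allele (difference 1.02, SE 0.05). The mouse share of scaled counts fell for Rpl12 from 55.5% and 55.7% in WT to 37.0% and 37.5% in the induced libraries, and for Rps28 it rose from 48.7% and 48.8% to 68.6% and 70.2%.

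**Figure D4:**
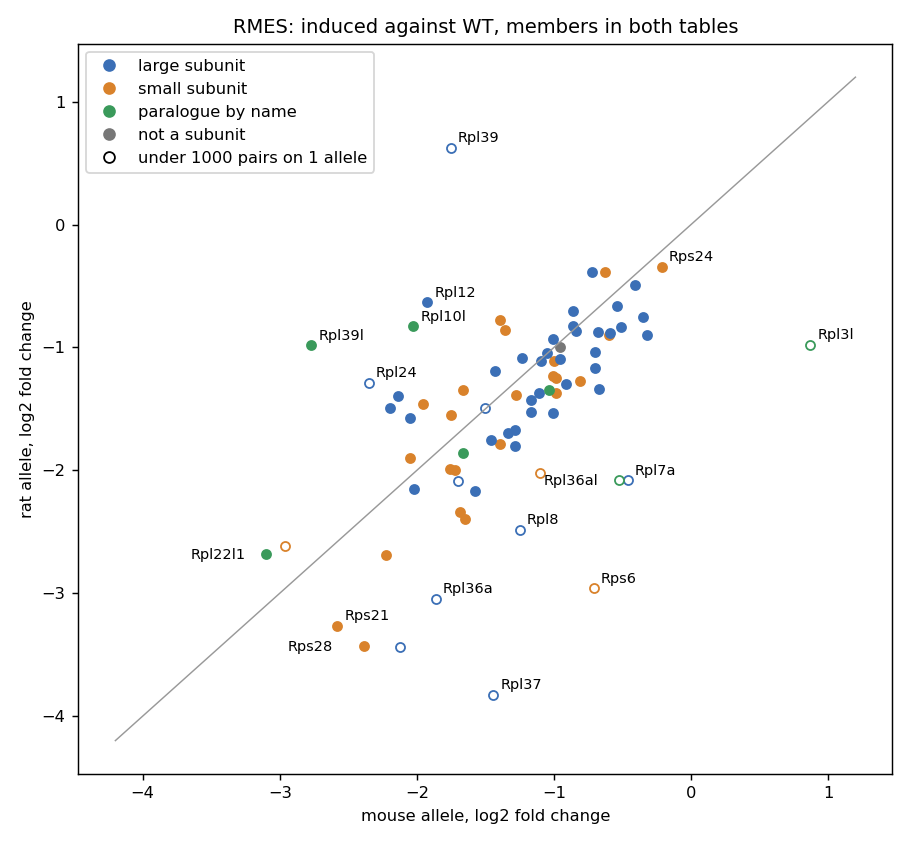
log2 fold change of each ribosomal protein gene, induced against WT RMES cells, on the mouse allele (horizontal axis) and on the rat allele (vertical axis), with a line of equal change, colours for the kind of gene and open circles for genes with under 1000 pairs on an allele. Most genes fell on both alleles, and Rpl12, Rpl10l and Rpl39l lie above the line.

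Over the 72 members with at least 200 pairs, the mouse share of scaled counts had a median of 46.8% in WT (quartiles 42.5% and 51.5%) and of 55.8% in the induced libraries. From unscaled counts the medians were 53.0% and 56.5%, so that the side of 50% on which WT lay depended on the scaling. In WT it lay between 25% and 75% for 61 members, under 10% for 2 (Rpl24 and Rpl36al) and over 90% for 7. How reads that match both genomes equally well were assigned is not stated in the sources used here.

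Change went with transcript length, among members and among other genes. In mCdx2-OE the 12 members with a principal transcript of up to 500 bases had a median log2 fold change of −1.14, the 28 of 700 to 1000 bases −1.07 and the 10 of 1500 to 3000 bases −0.74. Other genes at 32 CPM or more had medians of −1.29 (7 genes), −0.73 (138 genes) and −0.26 (1876 genes) in the same classes, and 0.06 (3404 genes) over 3000 bases. In each class from 500 bases up the members were lower than the other genes, by medians. Where a gene had several principal transcripts, the longest was taken. It can be longer than the mRNA that the cells make, so some members may stand in too long a class. In the RMES mouse table the members went from −2.12 in the shortest class to −1.02 at 1500 to 3000 bases and the other genes from −1.59 to −0.39. The 2 members over 3000 bases by this choice, Rps15a (5179 bases) and Rps20 (3706 bases), stood outside this order. Their medians were −1.10 in mCdx2-OE and −1.28 in the RMES mouse table. The Spearman correlation of length and log2 fold change over the 86 members was 0.32 in mCdx2-OE, 0.45 in the mean of the mutants and 0.46 in the RMES mouse table. Genes of 1 library pair share its depth and RNA quality, and the part of length-dependent recovery of RNA in the falls was not tested. By the methods of the study, only RNA of high integrity was sequenced.

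**Figure D5:**
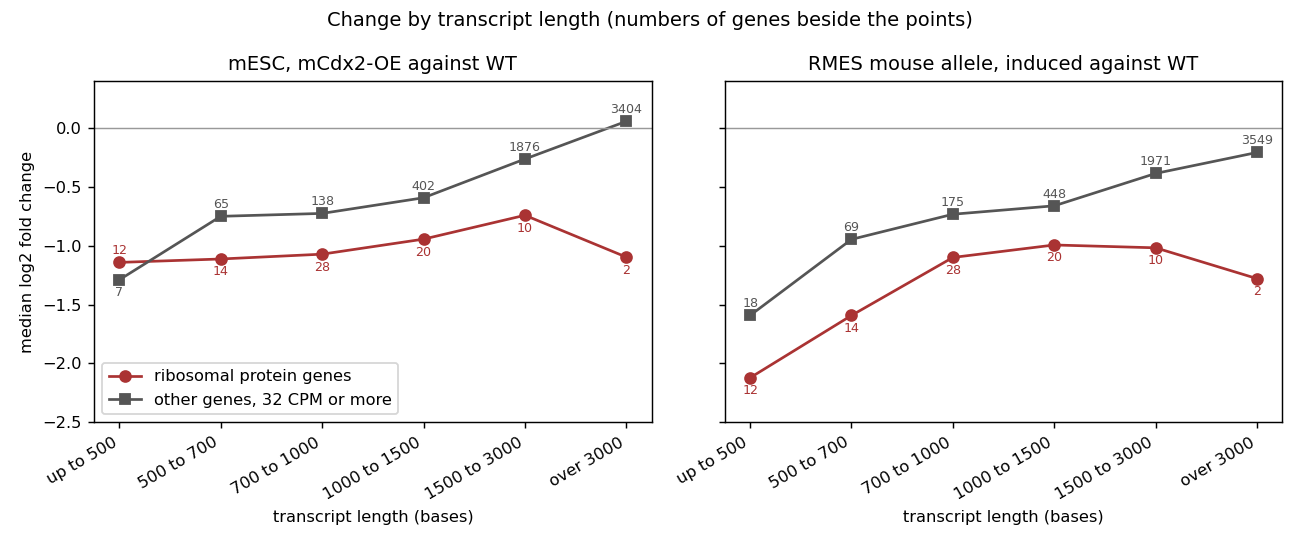
Median log2 fold change against WT by class of transcript length, for ribosomal protein genes (red) and other genes at 32 CPM or more (grey), in mCdx2-OE mESCs (left) and on the RMES mouse allele (right), with the number of genes beside each point. The shortest class holds 12 members and 7 other genes in mESCs.

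Most genes of ribosome biogenesis and of the mitochondrial ribosome were lower in mCdx2-OE as well. Among subunit genes whose symbols the rule misses, Fau, which encodes a ubiquitin-like protein fused to a small subunit protein (−1.82, SE 0.23), and Rack1, a scaffold on the small subunit (−0.71, SE 0.10), were both lower in mCdx2-OE. Of all tested genes, 35.8% were lower in mCdx2-OE. Of 40 genes of ribosome biogenesis 36 were lower and none higher, with a median of −0.86, among them Nhp2 (−1.61) and Gar1 (−1.59) of the box H/ACA particles and the rRNA methyltransferase Fbl (−1.53). Of 78 mitochondrial ribosomal proteins, which form another ribosome, 68 were lower and 1 higher, with a median of −0.72. Of 33 translation factors 24 were lower and 1 higher, with a median of −0.46. In the mean of the mutants, where 39% of all genes were lower, 33 biogenesis genes were lower and 2 higher, 58 mitochondrial ribosomal proteins were lower and 6 higher, and 17 translation factors were lower and 7 higher. On the RMES mouse allele 38 of the 40 biogenesis genes, 70 of the 78 mitochondrial ribosomal proteins and 30 of the 33 translation factors were lower, and on the rat allele all 38 tested, 63 of 72 and 27 of 29, against 39% of all genes on either allele.

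Of 18 regulators 10 were lower and 2 higher in mCdx2-OE, that is 12 called, against 11158 of all 16000 genes called in either direction. In the mean of the mutants 11 were lower and 4 higher. The largest changes in mCdx2-OE were those of Mycn (−1.27) and Myc (−1.20), which are activators of ribosomal genes, Mxd1 (1.02), an antagonist of Myc, Mdm2 (0.81), Eif4ebp1 (−0.72) and Eif4ebp2 (−0.69). Mxi1, another antagonist of Myc, was lower (−0.54, SE 0.09, adjusted p = 5.19e-05). In RMES cells Mycn was lower on the mouse allele (−0.72, edgeR adjusted p = 6.96e-08) and on the rat allele (−1.20, adjusted p = 3.67e-09). Myc was lower on the mouse allele (−1.56, SE 0.09, adjusted p = 5.56e-09) and higher on the rat allele (1.08, SE 0.17, adjusted p = 2.35e-05). Mxd1 was higher on the mouse allele (1.83, SE 0.14) and not called on the rat allele (0.18, adjusted p = 0.0502). Of the regulators tested, 10 of 18 were lower and 6 higher on the mouse allele, and 8 of 17 lower and 6 higher on the rat allele. Called in either direction were 13823 of all 16887 genes on the mouse and 12069 of 14627 on the rat allele.

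Chromatin was read in 1 ATAC-seq library of WT and 1 of mCdx2-OE mESCs and as Cdx2 ChIP-seq peaks called on merged reads, so these values have no replicate check. An ATAC peak lay within 1000 bases of the start of 84 members (97.7%) and of 89.3% of 15731 other tested genes. A Cdx2 ChIP peak lay there for 4 members (4.65%), namely Rpl4, Rpl29, Rpl38 and Rpl41, and for 7.32% of other genes. Over the start itself a ChIP peak lay in 1 member, Rpl41, and in 0.667% of other genes. The log2 ratio of scaled ATAC counts, mCdx2-OE over WT, had a median of 0.16 for members (quartiles −0.23 and 0.50) and of 0.35 for other genes. The RNA of the 4 members near a ChIP peak changed by −0.17 (Rpl4), −1.08 (Rpl29), −1.39 (Rpl38) and −1.12 (Rpl41) in mCdx2-OE.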

How the data were processed

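RNA-seq of 20 mESC and 4 RMES libraries was analysed from the counts that the authors deposited without normalisation. The authors aligned stranded read pairs with STAR 2.7.0d to mm10, and for RMES cells to mm10 and rn6 with each read assigned by edit distance. Pairs were counted per gene and strand with featureCounts, on an Ensembl annotation without pseudogenes, and replicate 2 of mESCs without incomplete or chimeric pairs, which could lower counts of single genes. ATAC-seq reads in peaks were likewise deposited as counts. Tests were those of edgeR 4.0.16 (R 4.3.3, limma 3.58.1; filterByExpr, TMM, quasi-likelihood test, Benjamini-Hochberg adjusted p under 0.05 at any fold), over all genes, with DESeq2 1.42.0 as the alternative. 1 model held the 20 mESC libraries, an additive model those of rCdx2 and the mutants. RMES alleles were compared by their interaction with induction, each library being a block. Genes named in full were the 3 largest falls per comparison with a mean of at least 50 counts, stalk proteins, Rpsa, Rps6, X-linked members, paralogues and members called among constructs or more than 2-fold between alleles; the other members named, such as those with overlapping groups or near ChIP peaks, were picked with their values in view. The members and lists were chosen with earlier results of these data known. The mouse positions are GENCODE's on GRCm38, and the sequences are RefSeq's (GRCm38.p6). The tests were tried on simulated counts. RMES ChIP-seq was not used here. The result of 1 gene of the lists is not reported here.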

Additional observations from a re-analysis of the deposited data

Results flagged for a closer look

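The response to induction differed between the mouse and the rat allele of RMES cells for 68 of 79 ribosomal protein genes by the interaction test, which called 62.1% of all genes. Differences of more than 2-fold were found for 12 members (15.2%) and for 24.8% of all genes. The differences of more than 2-fold, as log2 fold change of the mouse minus that of the rat allele, were −2.40 for Rpl39, −1.81 for Rpl39l, −1.31 for Rpl12, −1.24 for Rpl10l and −1.09 for Rpl24, where the mouse allele fell more or the rat allele less. They were 1.02 for Rps28, 1.16 for Rpl36a, 1.21 for Rpl8, 1.53 for Rpl36al, 1.59 for Rpl7a, 2.24 for Rps6 and 2.36 for Rpl37, where the rat allele fell more. The rat alleles of Rpl7a, Rpl8, Rpl36a, Rpl37, Rpl39 and Rps6 and the mouse alleles of Rpl24 and Rpl36al stood under 20 CPM in WT.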

How the results depend on the processing

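Over 28 results, 210 of 230 values under other settings stayed near the main value. Counts were judged by their ratio to the main count, and medians and shares by the spread between libraries. The 230 values include the runs without single mESC libraries and comparisons in which both counts were 0. With a fold change over 2 also required, the members called, beside the share of all genes called in either direction, numbered 40 for mCdx2-OE (33.4%), 44 for rCdx2-OE (34.5%), 34 for the mean of the mutants (26.2%), 2 for any difference among constructs (23.9%), 0 for change 3 (5.27%), 55 for the RMES mouse allele (44.5%) and 12 for the difference between alleles (24.8%). With total counts in place of TMM, 11 members differed among constructs and 11 with change 3, and the medians were −0.78 for the mean of the mutants, −0.82 for the RMES mouse allele and −1.14 for the rat allele, while the median of all genes moved to 0.16 in mCdx2-OE, 0.50 on the RMES mouse and 0.28 on the rat allele. In either replicate alone change 3 called 1 member, beside 1317 of all genes without replicate 1 and 1361 without replicate 2. The median of the members without replicate 1 and without replicate 2 was −0.79 and −0.87 for the mutants, −1.26 and −0.82 for mCdx2-OE and −1.25 and −0.79 for rCdx2-OE. Without mitochondrial genes in the total, members held 6.33% of RMES mouse WT counts and 3.62% of induced rat counts. From unscaled counts the median mouse share was 53.0% in WT and 56.5% in induced cells. A ChIP peak over the start itself was found for 1 member. Of 523 values of single genes 480 stayed, 31 lost and 7 gained a call, and 5 changed sign: Rpl4 in mCdx2-OE (0.011) and Rps24 on the RMES mouse allele (0.21) without TMM, Rpl21 without replicate 1 of mCdx2-OE (−0.12) or of WT (−0.75; up to 3.28 without single libraries), and Rps27rt without WT replicate 1 (0.92; down to −2.57 without replicate 2 of mCdx2-OE). The causes were not tested. Leaving out each of the 20 mESC libraries, chosen after seeing the data, gave 69 to 83 calls in mCdx2-OE, 71 to 84 in rCdx2-OE (lowest without its replicate 2), 72 to 79 in the mutants, 17 to 23 among constructs and 0 between mCdx2-OE and rCdx2-OE. Leaving out a replicate of all mESC conditions leaves no residual degrees of freedom and was not run for single conditions. Replicate numbers of mESC conditions were not taken to pair the libraries, since deviations correlated above 0.1 in 21 and not in all of 45 pairs of conditions (−0.14 to 0.45), although the share of counts on members was lower in replicate 1 than in replicate 2 for the mutants and higher for mCdx2-OE and rCdx2-OE. With the replicate block 81, 82 and 82 members were called in mCdx2-OE, rCdx2-OE and the mutants, 0 between the first and second, 29 among constructs, 0 for changes 1 and 2 and 9 for change 3. Of the 82 called in the mutants with this block, 81 were lower and the other was higher. Depth limits what can be said of members under 200 pairs in RMES cells.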
